A study of Mus musculus with 9 samples.

Results

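The genes described here are 40 genes of mitosis, the stage of the cell cycle in which a cell separates its copied chromosomes and divides. They were taken by name, as the gene identifiers whose symbol is on a fixed list of mitotic genes. That list and the related lists below were chosen with earlier results of these data known. Shares of calls within them therefore describe the lists and are not a test. All 40 were found among the 55450 genes of the count table, and all 40 passed the filter on low counts that left 14246 genes for testing.

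The cells were IMM, an immortalized macrophage line from mouse whose genotype is labelled WT, and every library came from this line. The control group was taken at 0 min and its treatment is given as none; the other groups received lipopolysaccharide (LPS), a component of the outer membrane of Gram-negative bacteria, at 100 ng/mL for 30 or 60 min. Each time had 3 libraries of total RNA, 9 in all, which the design text calls biological replicates; nothing else in the labels shows how separate the cultures were, so that p-values measure the spread between these samples. No library was kept without LPS for 30 or 60 min, so that LPS, handling and time in the dish cannot be told apart.

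Library totals ran from 26867428 to 30402308 counts, and a mitotic gene had between 286 and 45909 counts in a library. Levels are in CPM, counts brought to a common library total after scaling by edgeR's TMM factors, and a gene was called changed at a Benjamini-Hochberg adjusted p under 0.05 over all genes tested. The 5 macrophage markers Csf1r, Cd68, Lyz2, Itgam and Adgre1 summed to 1714, 1742 and 1749 CPM on plain totals at 0, 30 and 60 min. No marker of fibroblasts, T cells, B cells, neutrophils or epithelium exceeded 0.383 CPM in any library. Known LPS-response genes moved with the treatment: Tnf, which encodes an inflammatory cytokine, went from 47.5 ± 4.27 CPM at 0 min to 341 ± 91.4 at 30 min and 560 ± 37.5 at 60 min (SD, n = 3).

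Entry into mitosis is driven by the kinase Cdk1 bound to cyclins A and B. The Polo and Aurora kinases then build the spindle, kinesins and kinetochore proteins attach and align the chromosomes, and a checkpoint holds the cell until all are attached. The anaphase-promoting complex finally marks cyclin B and securin for destruction, which releases the chromosomes and lets the cell divide. The RNA of most of these genes is made late in the cell cycle, through promoter elements named CHR (cell cycle genes homology region) and CCAAT box, so the summed RNA of a dividing culture reflects both how many cells are near mitosis and how much RNA each holds. In bulk samples such as these, fewer cells near mitosis and less RNA per cell cannot be told apart.

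Promoters of the mitotic genes are described first. These elements are known from late cell cycle promoters such as these, so their shares are a description and not an independent test. RefSeq promoter entries on GRCm38.p6, each reaching from 250 bases before to 50 bases after a transcription start, were matched for 33 of the 40 genes and gave 36 promoters. The CHR was searched on both strands in its main form, TTTGAA, and in the variants TTCGAA and, as found before Plk1, TTTAAA. The CCAAT box was searched on both strands by the letters of its name. A CHR was present in 32 of the 36 promoters (88.9%), against 28.8% of all 32851 promoters of the table. It lay within 50 bases of the start in 29 of the 36 (80.6%), against 8.62% of all promoters. A CCAAT box was present in 27 of the 36 (75%), against 37.4% of all, and both elements in 26 of the 36 (72.2%), against 11.3%; in 1 promoter the elements shared bases. Either of the E2F-like strings, TTCCCGC or its relative in S-phase promoters TTTGGCG, searched on both strands, was in 0 of the 36 and in 5.99% of all promoters.

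The stretches below lie just upstream of the start of genes from different steps of mitosis and are shown because they hold these elements in different number and spacing; each runs 5′ to 3′ on the gene's strand, ends before the annotated gene, and has CHR and CCAAT letters of either strand in capitals. Plk1 is at chr7:122159315-122159434 (+ strand), Aurka at chr2:172370571-172370690 (- strand), Kif11 at chr19:37376262-37376381 (+ strand), Cdk1 at chr10:69352939-69353032 (- strand), Cdc20 at chr4:118437353-118437463 (- strand) and Top2a at chr11:99024190-99024309 (- strand), all on GRCm38.p6.
Plk1: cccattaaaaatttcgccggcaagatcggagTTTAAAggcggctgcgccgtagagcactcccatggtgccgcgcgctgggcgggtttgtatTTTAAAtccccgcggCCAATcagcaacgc
Aurka: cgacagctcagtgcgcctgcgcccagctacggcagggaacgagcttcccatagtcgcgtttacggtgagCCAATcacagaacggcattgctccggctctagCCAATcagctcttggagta
Kif11: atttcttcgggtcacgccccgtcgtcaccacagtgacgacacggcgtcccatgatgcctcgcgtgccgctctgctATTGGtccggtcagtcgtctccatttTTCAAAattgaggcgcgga
Cdk1: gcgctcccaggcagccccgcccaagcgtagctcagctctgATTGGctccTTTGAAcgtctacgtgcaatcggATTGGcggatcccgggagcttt
Cdc20: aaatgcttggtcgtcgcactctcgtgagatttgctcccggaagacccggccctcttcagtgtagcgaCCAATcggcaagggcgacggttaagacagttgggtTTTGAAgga
Top2a: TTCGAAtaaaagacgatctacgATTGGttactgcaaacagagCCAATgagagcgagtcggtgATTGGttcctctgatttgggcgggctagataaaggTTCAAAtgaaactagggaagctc
The Plk1 stretch holds TTTAAA at -89 and at -29 from the start and CCAAT at -14. That of Aurka holds CCAAT boxes at -51 and -19, and its CHR elements lie after the start, at 18 and 33, outside the printed bases. A single CHR and CCAAT box stand before Kif11, at -19 and -45. The stretches of Cdk1 and Cdc20 end at -27 and -10, which leaves out a CHR at -15 for Cdk1 and a CCAAT box at -8 for Cdc20. Among the genes called lower at 60 min (below), a CHR was found in the promoters of 10 of the 10 with an entry, and among the other mitotic genes in those of 19 of 23. A match is a run of letters and not a measured binding site.

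Mitotic RNA was abundant. By mean CPM over all 9 libraries the genes ranked between the 68.5th (Ttk) and the 99.7th percentile (Mki67) of the genes tested, apart from Pttg1 at the 40th (40.05). Per length of exon, the highest level at 0 min was that of Mki67, which coats mitotic chromosomes, at 145.9 ± 5.52 CPM per kb (SD, n = 3). It was followed by Ube2c at 87.4 ± 5.90, Bub1b at 79.5 ± 2.59, Tpx2 at 78.2 ± 2.03, Plk1 at 71.3 ± 1.52 and Ccna2 at 60.3 ± 1.16 CPM per kb. The libraries of Ube2c and Bub1b, and those of Bub1b and Tpx2, overlapped, whereas those of Mki67 stood above all of these and those of Plk1 and Ccna2 below in turn. The lowest levels per kb were those of Pttg1, which encodes securin, at 5.33 ± 0.20, and of Ndc80 at 7.86 ± 0.41, a subunit of the kinetochore complex that grips microtubules. Levels per kb differed far more between genes than any of these genes differed between times.

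**Figure D1:**
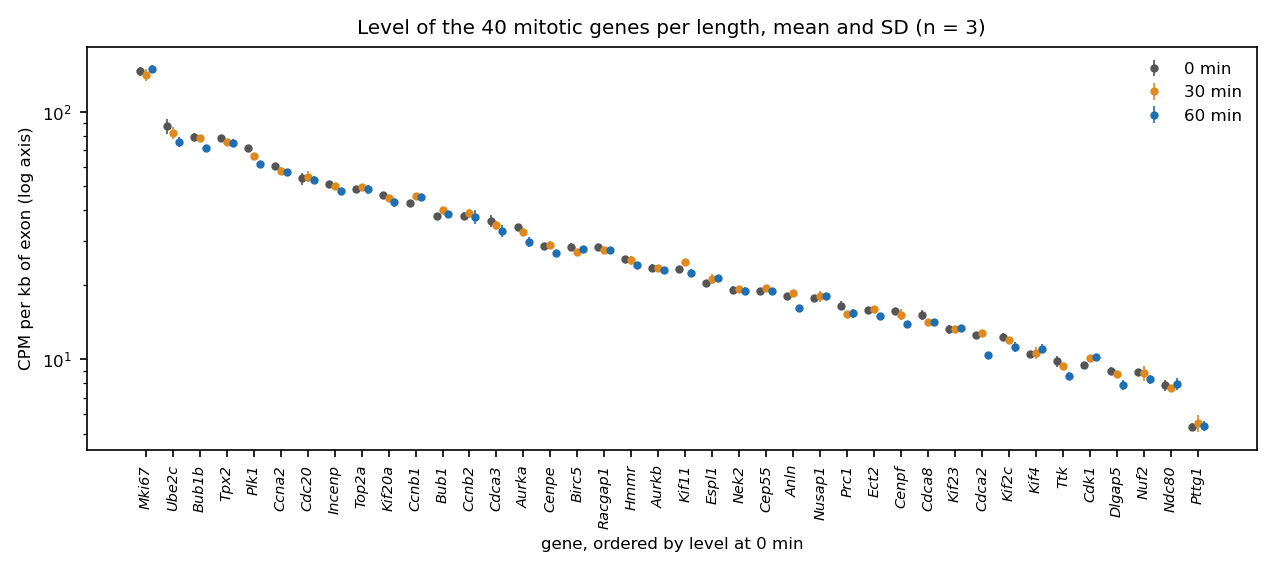
Mean level of each of the 40 mitotic genes in CPM per kb of exon (log axis) at 0, 30 and 60 min of LPS, with the SD over 3 libraries, ordered by the level at 0 min. The order runs from Mki67 at 145.9 to Pttg1 at 5.33 CPM per kb, and the 3 times lie close together for every gene.

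At 30 min no mitotic gene was called higher or lower by edgeR (0 and 0 of 40), while 5.26% of all genes tested were called higher and 3.7% lower. At an unadjusted p under 0.05, 3 were higher (Ccnb1, Cdk1 and Kif11) and 3 lower (Plk1, Prc1 and Cdca8); DESeq2 and limma-voom also called 0. The median log2 change was -0.01, against 0.01 for all genes tested, and the 95% interval of every one of the 40 lay within a 1.2-fold change in either direction. The smallest adjusted p-values belonged to Plk1 (log2 change -0.10, SE 0.03, adjusted p = 0.0626) and Prc1 (-0.11, SE 0.04, adjusted p = 0.0838), which bundles the microtubules of the central spindle. All 3 libraries of 30 min lay below the 3 of 0 min for both genes. Plk1 passed when the 60 min replicate 3 was left out (adjusted p = 0.0381), and both passed when plain totals were the only scaling. Libraries of the 2 times did not overlap for 8 of the 40, 4 above and 4 below, against 14.1% above and 11.7% below over all genes tested.

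At 60 min 12 of the 40 were called lower (30%) and 0 higher, against 12.2% lower and 13.9% higher among all genes tested. Of all genes at or above the level of the lowest mitotic gene, 12.5% were called lower. That gene is Pttg1, well below the others in level, so this share is not matched to the abundance of the rest. In order of size the 12 were Cdca2, Plk1, Ube2c, Aurka, Ttk, Dlgap5, Cenpf, Anln, Bub1b, Kif2c, Cdca3 and Cenpe, with log2 changes from -0.28 to -0.10. The median over the 40 was -0.07, against 0.00 for all genes tested, and 29 of the 40 changes were below 0 (72.5%, against 49.8% of all genes tested). Beside the 0 higher calls, 2 genes were higher at an unadjusted p under 0.05, Ccnb1 and Cdk1, and DESeq2 and limma-voom also called 0 higher. For 16 of the 40 all 60 min libraries lay below all 0 min libraries (background 18.7%) and for 3 all lay above (background 19.6%). In the authors' deposited table for 60 min, 9 of the 40 had an adjusted p under 0.05 (22.5%), all lower, against 7.84% lower and 10% higher among the 14897 genes with an adjusted p in that table. They were Cdca2, Plk1, Ube2c, Aurka, Ttk, Dlgap5, Cenpf, Anln and Bub1b.

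The scaling of the libraries bears on this count. The mean TMM factor fell with time, being 1.02, 1.00 and 0.975 for the libraries of 0, 30 and 60 min, so that plain totals put 60 min levels lower. With plain totals 23 of the 40 were called lower at 60 min (57.5%) and 0 higher, where the median log2 change of all genes was -0.07 and 22.2% of them were called lower; the calls over all genes then split into 1328 higher and 3167 lower, against 1983 and 1740 with TMM. The 12 called with TMM were among the 23. No mitotic gene was past the threshold when the test was made against a 1.2-fold change rather than against no change, at 60 min as at 30 min. That test called 3.22% of all genes tested lower at 60 min and 0.814% at 30 min.

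**Figure D2:**
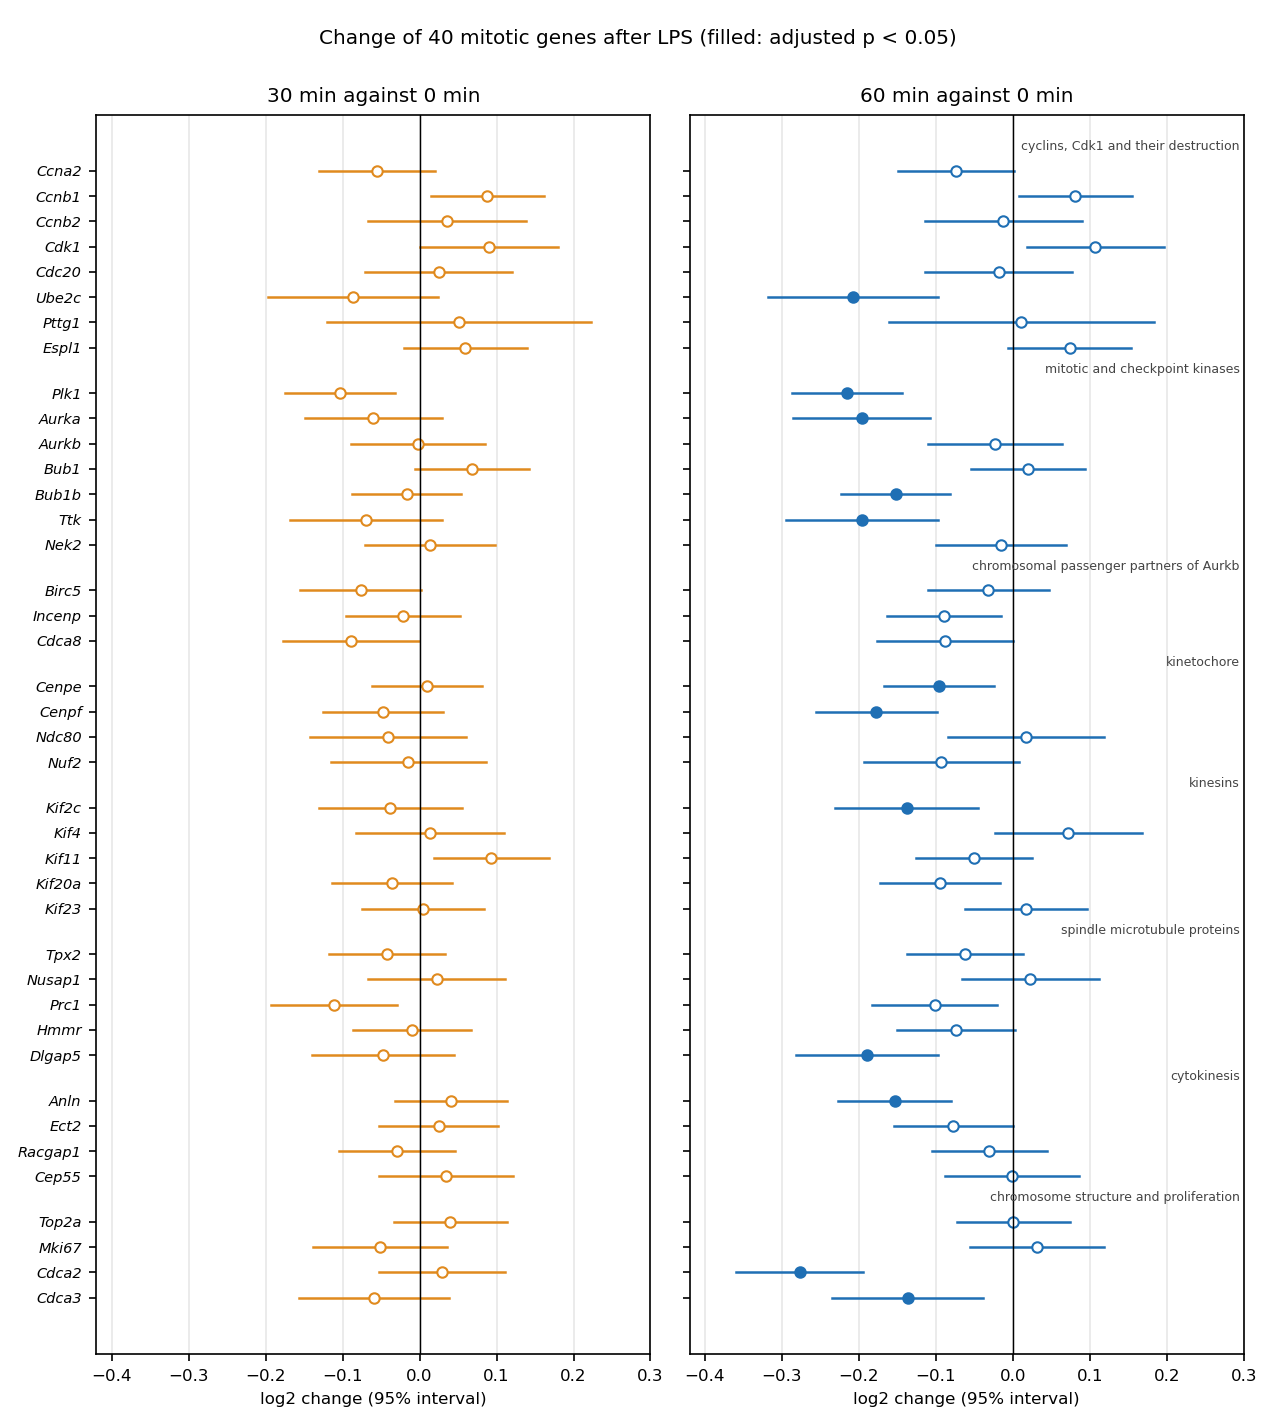
Log2 change of each mitotic gene at 30 min (left) and 60 min (right) against 0 min, with the 95% interval from edgeR, grouped by role; filled points have an adjusted p under 0.05. No point is filled at 30 min, and at 60 min the 12 filled points all lie below 0, between -0.28 and -0.10.

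Of the 8 genes of cyclins, Cdk1 and the machinery of their destruction, 1 fell at 60 min (12.5%, against 12.2% of all genes tested) and 0 rose. The gene that fell was Ube2c, the ubiquitin-conjugating enzyme that works with the anaphase-promoting complex. It stood at 231, 240.3 and 210.3 CPM in the 0 min libraries, 209.7, 228 and 204 at 30 min, and 189.7, 194 and 206 at 60 min. Every 60 min library was below every 0 min library, while the 30 min libraries overlapped both groups. Ube2c fell by 13.4% at 60 min (log2 change -0.21, SE 0.05, edgeR adjusted p = 0.00708). Ccna2, which encodes cyclin A2 and has the highest CPM of this group, read 243, 252 and 243 CPM at 0 min, 236, 245 and 229 at 30 min and 233, 227 and 241 at 60 min. Its 60 min libraries all lay below those of 0 min, but by little: the log2 change was -0.07 (SE 0.04, adjusted p = 0.145). Without the 60 min replicate 3 it was called lower (adjusted p = 0.0475).

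Cdk1 and its partner Ccnb1, which encodes cyclin B1, leaned the other way without passing the test. Cdk1 read 46.0, 46.7 and 47.4 CPM at 0 min, 49.6, 48.6 and 51.0 at 30 min and 51.0, 51.3 and 48.6 at 60 min, with every later library above every 0 min library. The log2 change at 60 min was 0.11 (SE 0.04, adjusted p = 0.0717). For Ccnb1 it was 0.08 (SE 0.04, adjusted p = 0.0979), from 181 ± 5.74 to 191 ± 2.06 CPM. Espl1, which encodes the protease separase that opens the cohesin rings, was the remaining gene with all 60 min libraries above 0 min (log2 change 0.07, adjusted p = 0.171). The changes at 60 min of Ccnb2, of Cdc20, which activates the anaphase-promoting complex, and of Pttg1 ran from -0.02 to 0.01. The interval of Pttg1, the least abundant gene, was the widest of the group and allowed a change from -10.5% to 13.5%.

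Mitotic and checkpoint kinases held 4 of the 12 falls, from 7 genes (57.1%, against 12.2% of all genes tested). Plk1, the Polo-like kinase of centrosomes, kinetochores and cytokinesis, stood at 158, 159 and 153 CPM at 0 min, 145, 147 and 145 at 30 min and 134, 135 and 136 at 60 min. The 3 times formed separate bands in which no library of one overlapped the next. Plk1 fell by 13.9% from 0 to 60 min (log2 change -0.22, SE 0.03, adjusted p = 3.99e-05) and by 7.46% from 30 to 60 min (-0.11, SE 0.03, adjusted p = 0.026). The second step was not called when 30 min replicate 2 or 3 or 60 min replicate 1 or 2 was left out (adjusted p = 0.0649 to 0.109), with log2 changes from -0.11 to -0.10. Aurka, the Aurora kinase of spindle poles, read 89.3, 86.2 and 84.0 CPM at 0 min, 80.0, 83.4 and 85.5 at 30 min and 72.8, 74.1 and 79.6 at 60 min. Only the 60 min libraries were apart from the rest, and Aurka fell by 12.7% from 0 min (log2 change -0.20, SE 0.04, adjusted p = 0.00128).

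The remaining kinases called lower serve the spindle checkpoint. Bub1b, the BubR1 component that inhibits the anaphase-promoting complex, stood at 352, 338 and 330.0 CPM at 0 min, 341, 333 and 333 at 30 min and 302, 310.1 and 305 at 60 min. The 0 and 30 min libraries intermingled and the 60 min libraries lay below both, and Bub1b fell by 10% from 0 min (log2 change -0.15, SE 0.03, adjusted p = 0.00156). Ttk, the Mps1 kinase that starts checkpoint signalling, read 45.7, 50.5 and 49.0 CPM, then 45.2, 46.0 and 47.3, then 41.8, 41.1 and 44.0. It fell by 12.7% at 60 min (log2 change -0.20, SE 0.05, adjusted p = 0.00329). Aurkb, Bub1 and Nek2, a kinase of centrosome separation, were not called, with log2 changes at 60 min of -0.02, 0.02 and -0.02. A difference between Aurka and Aurkb, or between Bub1b and Bub1, was not tested.

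None of the chromosomal passenger partners of Aurkb, which carry that kinase to the centromeres, was called at either time. Of all genes tested, 12.2% were called lower and 13.9% higher at 60 min. Incenp, the scaffold and the most abundant of the 3, stood at 222, 225 and 214 CPM at 0 min, 218, 221 and 212 at 30 min and 203, 205 and 214 at 60 min. Its groups overlapped, and the log2 change at 60 min was -0.09 (SE 0.04, adjusted p = 0.0717). It was called lower without 0 min replicate 3 (adjusted p = 0.0489) or 60 min replicate 3 (adjusted p = 0.0195). Birc5, which encodes survivin, and Cdca8, which encodes borealin, had log2 changes of -0.03 and -0.09 at 60 min.

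Kinetochore genes split evenly, with 2 of 4 lower at 60 min (50%, against 12.2% of all genes tested). Cenpf, a large protein of the outer kinetochore, read 248, 237 and 240.0 CPM at 0 min, 245, 235 and 222 at 30 min and 215, 212 and 214 at 60 min. It fell by 11.6% at 60 min (log2 change -0.18, SE 0.04, adjusted p = 0.000956), and the 60 min libraries spanned less than 3 CPM below all others. Cenpe, the kinetochore motor that carries chromosomes to the spindle equator, read 247, 252 and 247 CPM, then 256, 253 and 241, then 231, 234 and 232. It fell by 6.45%, the smallest of the 12 falls (log2 change -0.10, SE 0.03, adjusted p = 0.0416). The call was lost without any single library of 0 min, 30 min replicate 2, or 60 min replicate 1 or 2 (adjusted p = 0.0592 to 0.0887), although no 60 min library reached the lowest of 0 min. Ndc80 and its partner Nuf2 had log2 changes of 0.02 and -0.09 and were not called.

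Of the 5 genes listed as kinesins, the motors that move along or take apart microtubules, 1 fell at 60 min (20%, against 12.2% of all genes tested). Cenpe, also a kinesin, is counted with the kinetochore genes above. It was Kif2c, the depolymerase also called MCAK, at 55.0, 54.6 and 52.0 CPM at 0 min, 52.5, 52.9 and 52.0 at 30 min and 47.9, 47.3 and 51.7 at 60 min. Kif2c fell by 9.11% (log2 change -0.14, SE 0.04, adjusted p = 0.026), which was not called without 0 min replicate 1 or 2 or 60 min replicate 1 or 2 (adjusted p = 0.0651 to 0.135). Kif11, the motor that pushes the spindle poles apart, behaved differently in time: 172, 170.2 and 178 CPM at 0 min, 187, 180.3 and 188 at 30 min and 171, 169 and 162 at 60 min. Its 30 min libraries lay above all others. The log2 change was 0.09 at 30 min (SE 0.04, adjusted p = 0.122), and from 30 to 60 min Kif11 fell by 9.48% (log2 change -0.14, SE 0.04, adjusted p = 0.00645) to levels that overlapped those of 0 min.

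The most abundant of the genes listed as kinesins was Kif20a of the central spindle. It read 208, 195 and 196 CPM at 0 min, 195, 198 and 192 at 30 min and 183, 182 and 195 at 60 min. The groups overlapped slightly and the log2 change at 60 min was -0.10 (SE 0.04, adjusted p = 0.0678). It was called lower without 0 min replicate 2 (adjusted p = 0.0445) or 60 min replicate 3 (adjusted p = 0.0126). Kif4, a motor on chromosome arms, and Kif23, of the complex that organises the cleavage site, had log2 changes of 0.07 and 0.02.

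Spindle microtubule proteins held 1 fall among 5 (20%, against 12.2% of all genes tested). Dlgap5, which stabilises the fibres that pull on kinetochores, stood at 62.6, 59.1 and 62.01 CPM at 0 min, 60.6, 59.8 and 57.4 at 30 min and 52.99, 51.7 and 56.5 at 60 min. The 60 min libraries were below all 6 earlier libraries, and Dlgap5 fell by 12.3% (log2 change -0.19, SE 0.04, adjusted p = 0.00247). Tpx2, which activates Aurka on the spindle, read 372, 369.9 and 355 CPM, then 364, 353 and 348, then 347, 339 and 365, with overlap at every step and a log2 change at 60 min of -0.06 (SE 0.04, adjusted p = 0.23). Leaving out 60 min replicate 3 alone made it a call (adjusted p = 0.0461). Prc1 had the same value at both times within its error (log2 changes -0.11 and -0.10, adjusted p = 0.0838 and 0.0608) and was called lower at 60 min without replicate 3 of 0 min or replicate 1 or 3 of 60 min (adjusted p = 0.0346 to 0.0438). Hmmr, a spindle-pole protein, was at -0.07 and Nusap1, which bundles microtubules near chromosomes, at 0.02.

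Among the genes of cytokinesis, the final splitting of the cell, 1 of 4 fell (25%, against 12.2% of all genes tested). Anln, the scaffold of the contractile ring, read 165, 166 and 159 CPM at 0 min, 164, 172 and 167 at 30 min and 145, 146 and 149 at 60 min. Its 60 min libraries were below all earlier ones, and Anln fell by 10.1% from 0 min (log2 change -0.15, SE 0.04, adjusted p = 0.00196). Racgap1, the most abundant of the 4 and a partner of Kif23, read 206, 194 and 201 CPM, then 200.3, 194 and 196, then 193, 193 and 203, and its groups overlapped (log2 change -0.03, adjusted p = 0.594). Ect2, the exchange factor that switches on RhoA at the cleavage site, had all 60 min libraries below 0 min without a call (log2 change -0.08, adjusted p = 0.139). Cep55, which recruits the abscission machinery, was at 0.00.

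Chromosome and proliferation genes contained the largest change and some of the flattest. Cdca2, which brings a phosphatase back to chromatin as cells leave mitosis, stood at 70.9, 73.9 and 70.7 CPM at 0 min, 73.1, 73.7 and 73.1 at 30 min and 59.6, 57.5 and 60.7 at 60 min. The drop came wholly between 30 and 60 min. Cdca2 fell by 17.5% from 0 min (log2 change -0.28, SE 0.04, adjusted p = 1.09e-05) and by 19.15% from 30 min (-0.31, SE 0.04, adjusted p = 5.49e-06). Cdca3 read 109.9, 99.6 and 102 CPM, then 100.0, 104 and 95.4, then 92.3, 90.6 and 101. It was the only one of the 12 whose 0 and 60 min libraries overlapped, and it fell by 9.02% (log2 change -0.14, SE 0.05, adjusted p = 0.0364), which was not called without 0 min replicate 1 or 3 or 60 min replicate 1 or 2 (adjusted p = 0.0583 to 0.202).

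Mki67, the gene of the Ki-67 proliferation antigen, read 1493, 1506 and 1404 CPM at 0 min, 1480.5, 1441 and 1329 at 30 min and 1486, 1455 and 1558 at 60 min. No order of the times could be seen, and the log2 change at 60 min was 0.03 with an interval from -3.79% to 8.54%. Top2a, the topoisomerase that untangles sister chromosomes, was at 438 ± 7.74, 450.3 ± 11.3 and 438 ± 16.8 CPM (log2 change 0.00 at 60 min). Because these are the most abundant of the 40, they weigh on any sum. The 40 together summed to 6940 ± 112, 6856 ± 141 and 6708 ± 108 CPM at the 3 times (SD, n = 3), a change of -3.35% by 60 min. Without Mki67 and Top2a the sums were 5034 ± 55.4, 4988 ± 54.2 and 4769 ± 65.8 CPM, a change of -5.26%.

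**Figure D3:**
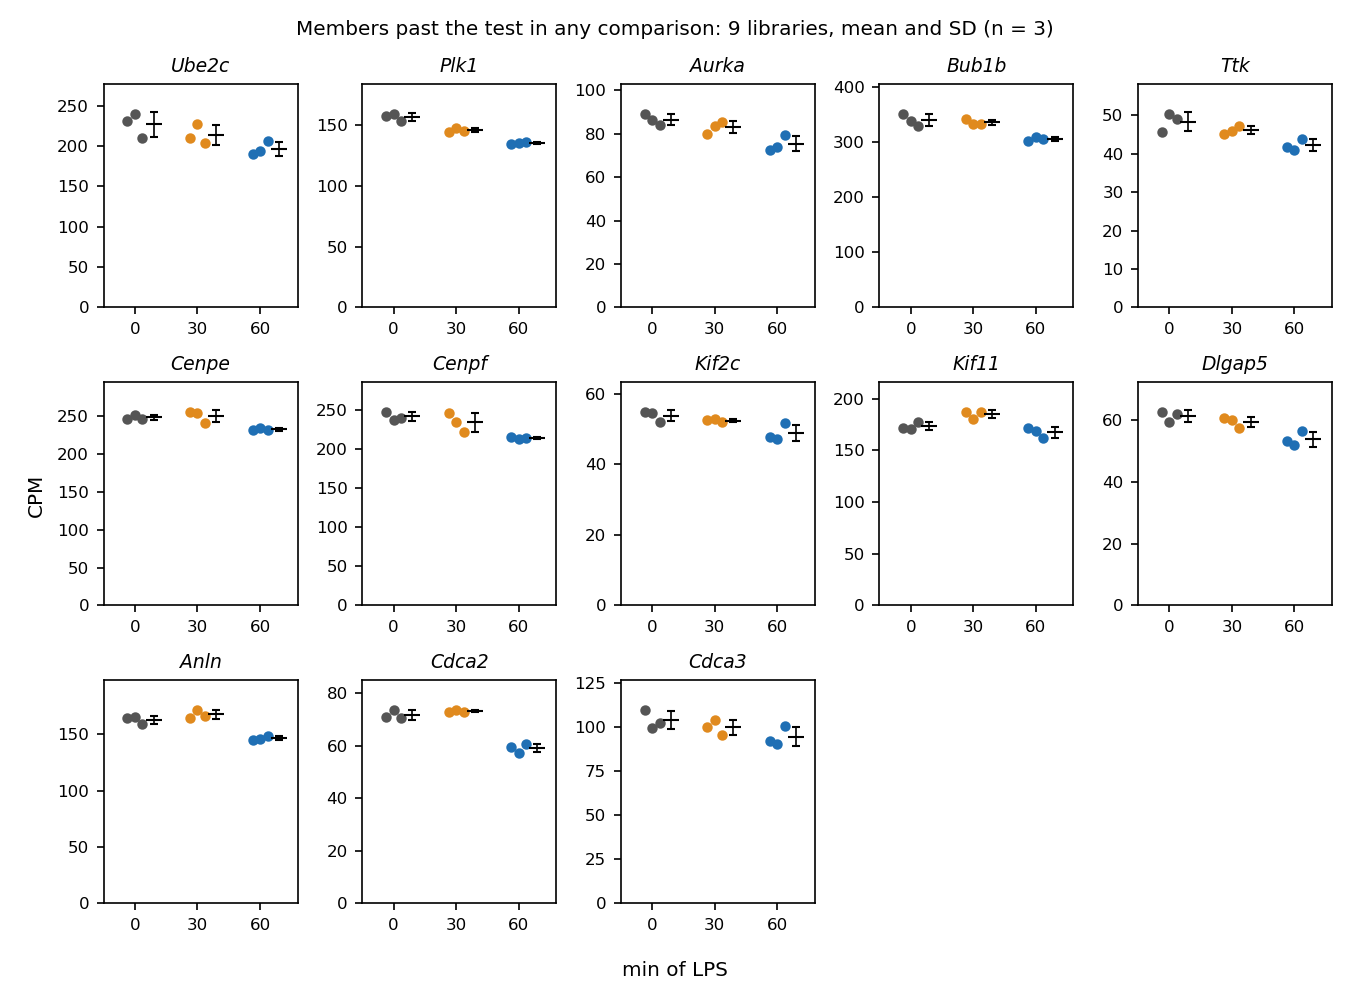
CPM in each of the 9 libraries (points), with mean and SD of 3, for the 13 mitotic genes called in at least 1 comparison; axes start at 0. Plk1 steps down at each time, Cdca2 and Anln drop between 30 and 60 min, and Kif11 is highest at 30 min.

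From 30 to 60 min 9 of the 40 fell (22.5%) and 0 rose, against 8.18% lower and 9.3% higher of all genes tested. This contrast tests whether the effects at the 2 times differ. Beside the 0 higher calls, 0 genes were higher at an unadjusted p under 0.05, and DESeq2 and limma-voom called 0 higher. The 9 were Cdca2, Anln, Kif11, Dlgap5, Aurka, Bub1b, Cenpf, Plk1 and Cenpe, with log2 changes from -0.31 to -0.11 and adjusted p-values up to 0.0344. All but Kif11 were also among the 12 lower at 60 than at 0 min; the 2 comparisons share the 60 min libraries. All 3 libraries of 60 min lay below the 3 of 30 min for 12 of the 40 (background 16.7%) and above them for 1, Birc5 (background 17.1%). The count of calls ranged from 4 to 10 when single libraries were left out: it was 4 without 30 min replicate 2 or 60 min replicate 2 and 5 without 60 min replicate 1. Those fits called 5.41%, 6.23% and 5.48% of all genes tested lower. Plk1 and Aurka were lost without 30 min replicate 2 or 3 or without replicate 1 or 2 of 60 min. Dlgap5 was lost without replicate 1 or 2 of either time, Cenpf without 30 min replicate 1 or 2 or replicate 2 of 60 min, and Cenpe without 30 min replicate 1 or 2 or any library of 60 min. The adjusted p-values of these lost calls were 0.0618 to 0.157, while Cdca2, Anln, Kif11 and Bub1b passed without any single library.

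Other genes of mitosis, 54 in all and outside the 40, were called in both directions. At 30 min 2 were higher and 1 lower (3.70% and 1.85%, against 5.26% and 3.7% of all genes tested). At 60 min 5 were higher and 10 lower (9.26% and 18.5%, against 13.9% and 12.2%), with a median log2 change of -0.02. From 30 to 60 min 3 were higher and 11 lower (5.56% and 20.4%, against 9.3% and 8.18%). Fbxo5, which encodes the anaphase-promoting complex inhibitor Emi1, had the largest fall, from 39.4 ± 2.47 CPM at 0 min to 32.7 ± 0.766 at 30 min and 25.6 ± 1.78 at 60 min (SD, n = 3). The log2 change was -0.27 at 30 min (SE 0.06, adjusted p = 0.00329) and -0.62 at 60 min (SE 0.06, adjusted p = 2.23e-08). Kif20b, a kinesin of late cytokinesis, fell by 24.2% at 60 min (adjusted p = 1.06e-08), from 201 ± 4.82 to 152 ± 1.47 CPM. Psrc1, a microtubule-binding protein, fell by 28.9% (adjusted p = 0.000152) from a low level of 13.5 CPM. In the opposite direction, Pkmyt1, a kinase that holds Cdk1 inactive, rose from 30.3 ± 1.78 to 41.0 ± 3.05 CPM at 60 min (log2 change 0.44, SE 0.06, adjusted p = 3.74e-06).

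Pkmyt1 was also called at 30 min (log2 change 0.20, adjusted p = 0.0373), but not without 0 min replicate 1 or any single library of 30 min (adjusted p = 0.0696 to 0.192). Cenpa, the centromeric histone, peaked at 30 min: it rose by 14.5% at 30 min (adjusted p = 0.00308) and fell by 14.7% from 30 to 60 min (adjusted p = 0.000331). From 30 to 60 min Sapcd2 and Mastl, which encodes the Greatwall kinase, had log2 changes of -0.26 each (adjusted p = 0.0235 and 0.0335). Sapcd2 was not called without 30 min replicate 2 or 3 or 60 min replicate 1 or 3, and Mastl without 30 min replicate 2 or 3 or 60 min replicate 2 or 3 (adjusted p = 0.0539 to 0.24). Cdc25b, a phosphatase that activates Cdk1, fell by 9.99% from 30 to 60 min (adjusted p = 0.0258), but not without replicate 2 or 3 of 30 min or 1 or 2 of 60 min (adjusted p = 0.0762 to 0.13). Ccnf, which encodes cyclin F, was not called (log2 changes 0.12 and 0.04 at 30 and 60 min, adjusted p = 0.0679 and 0.512). With plain totals as the only scaling, 1 of the 54 was higher and 20 lower at 60 min. Over all genes tested, 1328 were then higher and 3167 lower (22.2% lower).

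Regulators of these promoters were examined as a list. It held 16 genes: those of the MuvB complexes, Myb and Foxm1, and further genes of the E2F and Rb families such as E2f7, E2f8 and Rb1. Of the 16, 0 were called at 30 min, with 1 higher and 2 lower at an unadjusted p under 0.05. The DESeq2 and limma-voom fits called 0 as well. At 60 min 2 of the 16 rose (12.5%, against 13.9% of all genes tested) and 0 fell. Those that rose were Lin54, the subunit that binds the CHR, from 74.0 ± 1.87 to 87.4 ± 1.29 CPM (log2 change 0.24, SE 0.04, adjusted p = 0.000121), and Rbbp4 (0.13, SE 0.04, adjusted p = 0.0279). Rbbp4 was not called without 0 min replicate 1 or 2 or 60 min replicate 1 or 2 (adjusted p = 0.0624 to 0.169). Foxm1, an activator of late cell cycle genes, was at 96.1 ± 3.07, 94.3 ± 1.83 and 90.5 ± 4.68 CPM and was not called (log2 change -0.09 at 60 min, adjusted p = 0.143). With plain totals the split of this list at 60 min turned to 1 higher and 6 lower, where 22.2% of all genes tested were called lower. Of 16 genes of the anaphase-promoting complex, 1 fell at 30 min, Cdc26 (log2 change -0.19, adjusted p = 0.0217), and 1 rose at 60 min, Fzr1 (0.14, adjusted p = 0.0497), each being 6.25% of the list against 3.7% lower at 30 min and 13.9% higher at 60 min over all genes tested. Both calls were fragile. Cdc26 lost its call without 0 min replicate 1 or 2 or 30 min replicate 2 or 3 (adjusted p = 0.0562 to 0.126). Fzr1 lost its call without any 1 of 8 libraries (adjusted p = 0.0512 to 0.172). Plain totals gave 0 higher and 3 lower at 60 min, where 22.2% of all genes tested were called lower.

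**Figure D4:**
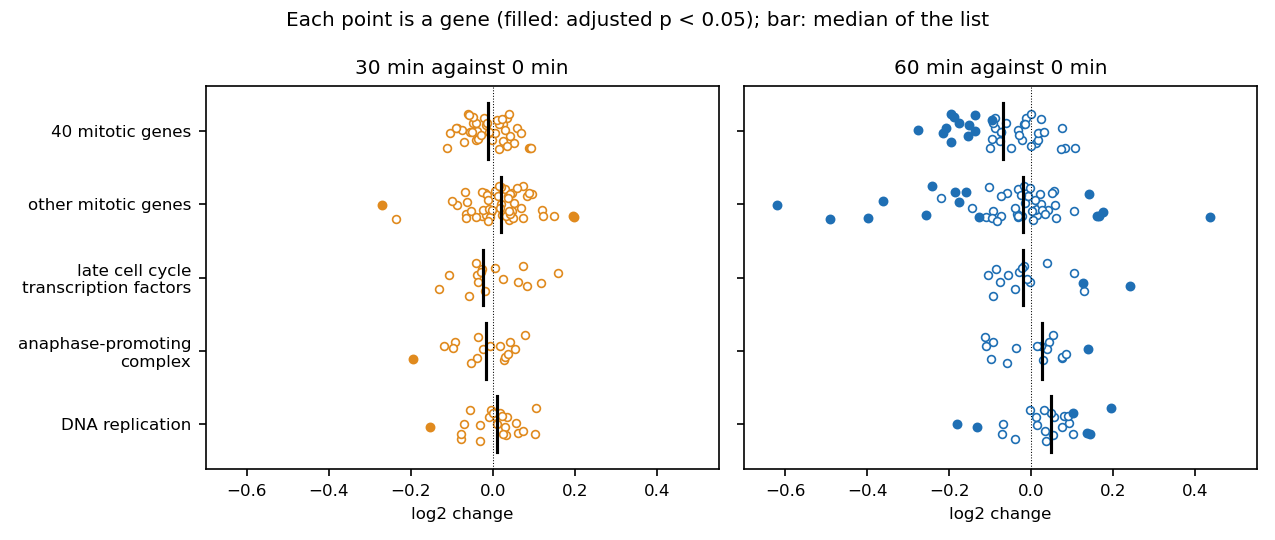
Log2 change of every gene of 5 lists at 30 min (left) and 60 min (right) against 0 min; filled points have an adjusted p under 0.05 and bars mark the list medians. The 40 mitotic genes have a median of -0.07 at 60 min, and at 60 min the other 4 lists have filled points on both sides of 0 or only above it.

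DNA replication genes, which act in the S phase before mitosis, had calls in both directions at 60 min with TMM scaling: 4 of 23 rose (17.4%, against 13.9% of all genes tested) and 2 fell (8.70%, against 12.2%). Their median log2 change was 0.05. Plain totals gave 1 higher and 3 lower and a median of -0.02, where 22.2% of all genes tested were called lower. Cdt1, which loads the replicative helicase, rose from 69.7 ± 1.38 to 79.8 ± 0.881 CPM (log2 change 0.20, adjusted p = 0.000637), and Pcna, the sliding clamp of the polymerases, by 10.4% (adjusted p = 0.00291). Cdc6, Cdt1's partner in helicase loading, fell by 11.8% (adjusted p = 0.00379). Rrm2, a subunit of ribonucleotide reductase, rose by 9.92% (adjusted p = 0.0126), though not without 0 min replicate 3 or 60 min replicate 1 (adjusted p = 0.0575 and 0.0946). The only call at 30 min was that of Tyms, thymidylate synthase, which fell by 10% (adjusted p = 0.0139), but not without 0 min replicate 3 or 30 min replicate 2 (adjusted p = 0.0628 and 0.0642).

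Cdkn1a and genes of the antiproliferative and p53-linked list had the largest changes of the lists examined apart from the LPS-response genes. Cdkn1a, which encodes the Cdk inhibitor p21, went from 9.03 ± 0.208 CPM to 43.9 ± 5.56 at 30 min and 57.9 ± 2.82 at 60 min (log2 changes 2.28 and 2.68, adjusted p = 1.47e-11 and 4.08e-13). Btg2, an antiproliferative gene activated by p53 and by growth signals, went from 5.79 ± 0.939 to 68.2 ± 7.83 and 60.2 ± 2.16 CPM (log2 changes 3.55 and 3.37, adjusted p = 3.5e-08 and 1.58e-08). Of the 14 antiproliferative and p53-linked genes, 9 rose at 30 min and 11 at 60 min (64.3% and 78.6%, against 5.26% and 13.9% of all genes tested). From 0 min, 0 fell at either time. With plain totals 10 rose and 1 fell at 60 min, where 1328 of all genes tested rose and 3167 fell (22.2% lower). Beside Btg2, the largest rises were those of the stress kinase Plk2 (log2 changes 2.36 and 3.05), of Gadd45a (0.87 and 3.06), of Gadd45g at 30 min (1.26) and of Mdm2, the ligase that removes p53, at 60 min (1.31). From 30 to 60 min 8 rose and 2 fell (57.1% and 14.3%, against 9.3% and 8.18%). Gadd45a rose by a further 359%, Mdm2 by 98.7%, Plk2 by 61.8% and Gadd45b by 43.6%. The falls, named after their values were seen, were those of Tob1 by 16.0% (adjusted p = 0.0201) and Tob2 by 7.48% (adjusted p = 0.034). Tob1 was not called without 30 min replicate 2 or 60 min replicate 1 or 3, and Tob2 without 30 min replicate 2 or 3 or any library of 60 min (adjusted p = 0.0589 to 0.154).

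G1 genes, which govern the entry into the cycle, gave 1 rise (Cdkn1a) and 2 falls at 60 min among 13 tested of 14 (7.69% and 15.4%, against 13.9% and 12.2% of all genes tested), Cdkn1c having 0 counts. Ccnd1, which encodes cyclin D1, read 118 ± 2.80, 116 ± 2.40 and 105 ± 4.60 CPM and fell by 10.8% at 60 min (log2 change -0.17, SE 0.04, adjusted p = 0.0027). Cdkn1b, which encodes the inhibitor p27, fell by 24.2% from 30 to 60 min (adjusted p = 0.000267) and by 13.6% from 0 min (adjusted p = 0.033), the latter not without 0 min replicate 2 or 3 or 60 min replicate 2 (adjusted p = 0.0649 to 0.177). From 30 to 60 min Ccnd1 fell by 9.54% (adjusted p = 0.0116) and Ccnd3 fell by 8.91% (adjusted p = 0.0393). Ccnd1 lost that call without 30 min replicate 3 or 60 min replicate 1 and Ccnd3 without 30 min replicate 2 or 3 or any library of 60 min (adjusted p = 0.0555 to 0.176). With plain totals this list gave 1 higher and 6 lower at 60 min, where 22.2% of all genes tested were called lower.

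Position and overlap with neighbours were checked in GENCODE M21 on GRCm38. The 40 genes lie on 16 chromosomes, 6 of them on chromosome 2. For 10 of the 40 an exon of a gene on the opposite strand overlaps their own, and the strand setting of the counting is not given in the sources used here, so that reads there may be shared. Of these, Ube2c (chr2:164769898-164778822, + strand) and Plk1 (chr7:122159439-122169873, + strand) were called lower at 60 min, and the opposite genes Tnnc2 and Gm44985 had 0.00909% and 0.0159% of their counts. For Cdc20, Kif4 and Kif20a, none of them called, the opposite gene had 112%, 41.4% and 35.2% of the gene's own counts. Cdca2, with the largest fall, lies at chr14:67676331-67715841 (- strand) and Anln at chr9:22332012-22389188 (- strand), each with no such overlap.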

How the data were processed

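RNA was measured in 9 libraries of IMM cells, 3 each at 0, 30 and 60 min of LPS. The authors' deposited table holds expected counts per gene, not normalized. The submitters' processing notes name STAR 2.7.0f and RSEM 1.3.1, beside cutadapt 1.18 and bcl2fastq 2.20, and the build mm10; which annotation and strand setting were used is not given in the sources used here. The library kit keeps strand and depletes ribosomal RNA, per the labels' protocols, so unspliced RNA is counted where it overlaps exons. RSEM divides reads that match several genes, and at most 5.32% of a library's values were not whole. The authors also deposited DESeq2 tables for 30 and 60 min with a mean normalized signal, a log2 fold change, a test score and p-values per gene, per the file headers; their model is not given in the sources used here.

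Counts were rounded and fitted with edgeR 4.0.16 in R 4.3.3: filterByExpr (minimum count 10), TMM factors, all 9 libraries in 1 robust quasi-likelihood fit with time as the only term, two-sided tests and Benjamini-Hochberg adjustment over 14246 genes. The spread between replicates was small (biological coefficient of variation 5.2%), and SEs were derived from each gene's F statistic. The procedure was tested on simulated counts. Exon lengths and neighbours come from GENCODE M21 (55450 of 55450 identifiers found) and promoters from RefSeq. Libraries of a time differed by more than sampling noise. Alternatives were DESeq2 1.42.0, limma-voom (limma 3.58.1), other scalings and filters, a replicate block, a test against a 1.2-fold change and leaving out each library.

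The 40 genes and the related lists were chosen with earlier results of these data known. Values in all libraries are given for mitotic genes past the threshold in any comparison and for the member of highest CPM in each role. From each related list the up to 4 called genes of largest absolute log2 change per comparison are named, plus Cdkn1a, Btg2, Cdc25b, Ccnf, Ccnd1 and Foxm1 whatever their values.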

Additional observations from a re-analysis of the deposited data

Results flagged for a closer look

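For 9 mitotic genes the effect at 60 min differed from that at 30 min by the test of the difference itself, which is the 60 against 30 min contrast of the edgeR fit. The log2 differences were -0.31 for Cdca2, -0.19 for Anln, -0.14 for Kif11, -0.14 for Dlgap5, -0.14 for Aurka, -0.14 for Bub1b, -0.13 for Cenpf, -0.11 for Plk1 and -0.11 for Cenpe. Both effects are measured against the same 0 min libraries. As given above, Plk1, Aurka, Dlgap5, Cenpf and Cenpe lost this call when some single libraries were left out. DESeq2 did not call Aurka and Dlgap5, and the fit without a filter on low counts did not call Plk1 and Cenpe. None of the 9 passed the test against a 1.2-fold change. For Kif11, Anln, Cdca2 and Cenpe the estimate at 30 min was above 0 (log2 changes 0.09, 0.04, 0.03 and 0.01, none called), and at 60 min it was below 0; for the other 5 both estimates were below 0.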

How the results depend on the processing

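No mitotic gene was called higher in any comparison under any alternative. Genes called lower at 30 min numbered 0, but 2 (Plk1 and Prc1) with plain totals or upper-quartile factors. Over all genes tested, those scalings called 5.28% and 5.78% lower. The number was 1 without a filter on low counts (Prc1), 1 with a minimum count of 50 (Plk1), and 0 to 1 when single libraries were left out. Of all genes in those fits, 2.99%, 4.81% and 2.53% to 4.39% were called lower. At 60 min the 12 became 23 with plain totals, 22 with upper-quartile factors and 0 when tested against a 1.2-fold change. Over all genes tested, plain totals called 22.2% lower, upper-quartile factors 19.4% and the 1.2-fold test 3.22%. Leaving out single libraries gave 9 to 17: 9 without 0 min replicate 1 or 60 min replicate 2, and 17 without 60 min replicate 3. Those fits called 9.68%, 9.54% and 11.7% of all genes tested lower. Cdca2, Plk1, Ube2c, Aurka, Ttk, Dlgap5, Cenpf, Anln and Bub1b were called at 60 min in every alternative but the 1.2-fold test. From 30 to 60 min the 9 became 14 with plain totals (12.4% of all genes tested), 0 in the 1.2-fold test (1.75%) and 4 to 10 without single libraries (5.41% to 8.54%). DESeq2 called 10 and 7 lower at 60 min and from 30 to 60 min, and limma-voom 11 and 9. Of all genes in the fit, DESeq2 called 5.32% and 3.39% lower and limma-voom 11.7% and 7.47%. The DESeq2 shares are over all genes with a count, without the filter. Plain totals scale 60 min libraries lower, and they moved the change of the summed level from -3.35% to -7.82% (60 against 0 min) and from -2.16% to -4.96% (60 against 30 min); leaving out Mki67 and Top2a gave -5.26% and -4.39%. The cause of the other changes was not tested.

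With the replicate number as a block, 0 mitotic genes were called lower at 30 min, 10 at 60 min (without Cenpe and Cdca3) and 8 from 30 to 60 min (without Cenpe). Over all genes tested, that fit called 3.21%, 11.2% and 7.40% lower. Over all genes, deviations of same-numbered libraries from their group means correlated between -0.0637 and 0.00609. Over the mitotic genes these correlations ran from -0.452 to 0.433, and those of differently numbered libraries from -0.385 to 0.433. With 3 libraries per time, such values cannot decide whether the numbers pair the samples, and the block fit rests on the number alone.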

Other observations

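The form of the CHR differed within the mitotic genes. TTTAAA, the form in the Plk1 stretch, was in 5 of the 10 promoters of genes lower at 60 min and in 3 of the 26 promoters of the others (13.2% of all promoters). The main form was in 9 of 10 and 19 of 26 (17.9% of all promoters). This split was chosen after its values were seen and was not tested.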
